A study of Mus musculus with 16 samples.

Results

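The 7 muscle genes Ankrd1, Ankrd2, Csrp3, Xirp1, Xirp2, Nrap and Mustn1, known to respond to mechanical load, were followed across all 16 libraries of the series. They are 7 of the 35415 genes in the deposited tables, and all 7 were among the 14749 genes with enough counts to be tested. The genes were chosen by symbol, with earlier results of the same libraries known. In those results Ankrd2 and Csrp3 had passed an unadjusted p-value in T vs C (the T group set against the C group) and in TE vs T. Values of these 2 comparisons, and of the interaction that contains them, are therefore given as descriptions. Counts of these genes past a threshold stand there only beside the share of all genes, and nothing is read from them.

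Ankrd1 and Ankrd2 encode ankyrin repeat proteins that bind the spring region of titin, the giant elastic protein of the sarcomere, and can also enter the nucleus. Csrp3 encodes muscle LIM protein of the Z-disc, Xirp1 and Xirp2 encode the Xin actin-binding repeat proteins, Nrap encodes a nebulin-related anchoring protein that sits where myofibrils end at the membrane, and Mustn1 encodes a small protein of musculoskeletal tissue. In skeletal muscle, several of these genes are known to rise after stretch, eccentric contraction or injury, and Ankrd2 and Csrp3 are more abundant in slow than in fast fibers.

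PolyA RNA of the gastrocnemius, a mostly fast calf muscle, was sequenced from wild type male BALB/c mice that were 8 weeks old at purchase. Neither C nor E mice had a tumor, and of these only the E mice were trained. Both T and TE mice were injected with CT26 cells, and of these only the TE mice were trained. Tumors did not form in all injected TE mice, and the tumors of the sequenced TE mice are not described beyond their label as tumor-bearing. The CT26 line comes from a colon carcinoma of a BALB/c mouse. Its cells were injected under the skin of the left hind limb in the T and TE mice, while C and E mice received saline at that place. All mice were anesthetized for the injection. Which leg gave the sequenced muscle is not given in the sources used here. Training was treadmill running at 14 m/min, 60 min per day and 6 days per week over 4 weeks, and the untrained mice were put on a treadmill that did not move. Of 12 mice per group, 4 were sequenced, and the labels give 1 batch for all libraries. Mice are named by group and replicate, so that T3 is T replicate 3.

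Each library held between 35628211 and 37635741 counts. The 10 muscle identity genes, among them Acta1, Ckm and Ttn, summed to between 118616 and 145476 CPM (TMM-normalised counts scaled to a common library total) in every library. Markers of other cells were uneven. Slow-twitch fiber markers summed to 1338 to 3477 CPM in the T mice, to 1170 to 1500 CPM in the TE mice and to 1043 to 2534 CPM in the C mice. Embryonic muscle markers peaked in T4 at 373 CPM. Neutrophil markers summed to 2.28 to 16.8 CPM in the C mice, 2.79 to 6.91 in the E mice, 10.9 to 55.4 in the T mice and 14.4 to 28.3 in the TE mice. Lymphocyte markers summed to 75.5 CPM in TE4, 29.0 in C3, 18.1 in E1, 9.22 in C2 and 8.46 in E2. They summed to 0.663 to 1.92 CPM in the T mice and to 0.724 to 1.30 in the other TE mice. In whole muscle, fewer cells of a type and less RNA per cell cannot be told apart.

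Promoter sequence is shown first. Whether it has a part in how several of the genes varied together between mice of a group was not tested. The 250 bases before the start of each gene were taken from RefSeq (GRCm38.p6), where 6 of the 7 genes had an entry. Xirp1 had none. Motifs of load and muscle transcription factors were searched on both strands. These were the CArG box of SRF, the MEF2 site, the MCAT element CATTCC of the TEAD factors and the E-box CANNTG of myogenic factors. Of 32851 promoters of the same length, 1.47% held a CArG box, 2.92% a MEF2 site, 12.6% an MCAT element and 66.2% an E-box. Ankrd1 is shown for its pair of MCAT elements, Ankrd2 and Csrp3 for the E-boxes of the most closely correlated pair of genes, and Xirp2 for its MEF2 site. Each runs 5′ to 3′ on the gene's strand, with those motifs in capitals.
Ankrd1 (chr19:36119845-36120094, minus strand, MCAT): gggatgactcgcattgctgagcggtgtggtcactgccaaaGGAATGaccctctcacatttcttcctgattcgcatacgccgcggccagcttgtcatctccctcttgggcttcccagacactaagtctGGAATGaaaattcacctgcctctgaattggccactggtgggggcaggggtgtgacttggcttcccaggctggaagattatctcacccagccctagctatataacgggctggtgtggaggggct
Ankrd2 (chr19:42035777-42036026, plus strand, E-box): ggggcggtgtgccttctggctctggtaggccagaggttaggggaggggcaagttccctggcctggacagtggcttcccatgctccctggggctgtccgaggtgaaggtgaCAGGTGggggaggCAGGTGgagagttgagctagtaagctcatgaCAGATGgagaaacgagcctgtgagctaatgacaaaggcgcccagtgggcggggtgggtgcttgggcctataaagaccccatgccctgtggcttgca
Csrp3 (chr7:48848052-48848301, minus strand, E-box): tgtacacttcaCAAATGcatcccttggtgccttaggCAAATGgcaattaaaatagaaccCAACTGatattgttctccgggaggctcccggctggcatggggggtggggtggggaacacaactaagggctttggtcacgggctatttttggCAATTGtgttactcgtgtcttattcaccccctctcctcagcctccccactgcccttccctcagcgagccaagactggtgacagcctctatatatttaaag
Xirp2 (chr2:67445752-67446001, plus strand, MEF2 site): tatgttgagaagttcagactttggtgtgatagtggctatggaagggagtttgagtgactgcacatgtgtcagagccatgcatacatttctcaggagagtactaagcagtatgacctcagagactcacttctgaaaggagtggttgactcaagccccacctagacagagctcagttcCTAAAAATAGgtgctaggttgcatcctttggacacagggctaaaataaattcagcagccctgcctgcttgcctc
The 2 MCAT elements of Ankrd1 lie 210 and 123 bases before the start, on the opposite strand, and do not overlap its single E-box at 111. Ankrd2 held 3 E-boxes, Csrp3 4 and Nrap 3. Xirp2 held a MEF2 site 74 bases before the start and 2 E-boxes that overlap each other. No motif was matched in the window of Mustn1, and the CArG box was matched in none of the 6, which says only that these letters are not in these windows. A match is a description of the letters and not a measured binding site.

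In the GENCODE annotation of GRCm39, 3 of the genes lie on chromosome 19: Ankrd1 from 36089352 to 36097506, Ankrd2 from 42024274 to 42033552 and Nrap from 56308454 to 56378631. Csrp3 lies on chromosome 7 from 48480142 to 48497901, Xirp1 on chromosome 9 from 119842821 to 119852664, Xirp2 on chromosome 2 from 67004178 to 67356962 and Mustn1 on chromosome 14 from 30601157 to 30603567. Ankrd1, Xirp2 and Nrap overlap other annotated genes. A long noncoding RNA, Gm56671, runs antisense to Ankrd1. Xirp2 overlaps 3 antisense long noncoding RNAs, 1 of them, Gm13598, only in part, and 1 small nucleolar RNA, and Nrap overlaps Habp2 and the long noncoding RNA Gm17197 on the other strand. The strand setting of the counting is not given in the sources used here, so how reads in the overlapping stretches were counted is not known.

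Per unit of gene length, RNA of Nrap and Xirp2 was the most abundant in the C group and that of Ankrd1 the least. In the C group the mean level was 189 ± 5.65 FPKM for Nrap (SD, n = 4 mice), 161 ± 13.1 for Xirp2, 78.2 ± 29.6 for Csrp3, 70.2 ± 21.8 for Ankrd2, 49.5 ± 4.11 for Mustn1, 22.2 ± 5.73 for Xirp1 and 2.33 ± 0.567 for Ankrd1. The ranges over mice overlapped between the neighbours Csrp3 and Ankrd2 and between Ankrd2 and Mustn1, and not between the others. In the T group Csrp3 came second at 182 ± 130 FPKM (SD, n = 4), but its mice overlapped those of Nrap above and Xirp2 below. In the TE group Mustn1 came after Xirp2 and Nrap at 118 ± 115 FPKM (SD, n = 4), and its range overlapped both neighbours. Ankrd1 was the lowest of the 7 in every group, with no overlap with Xirp1.

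**Figure D1:**
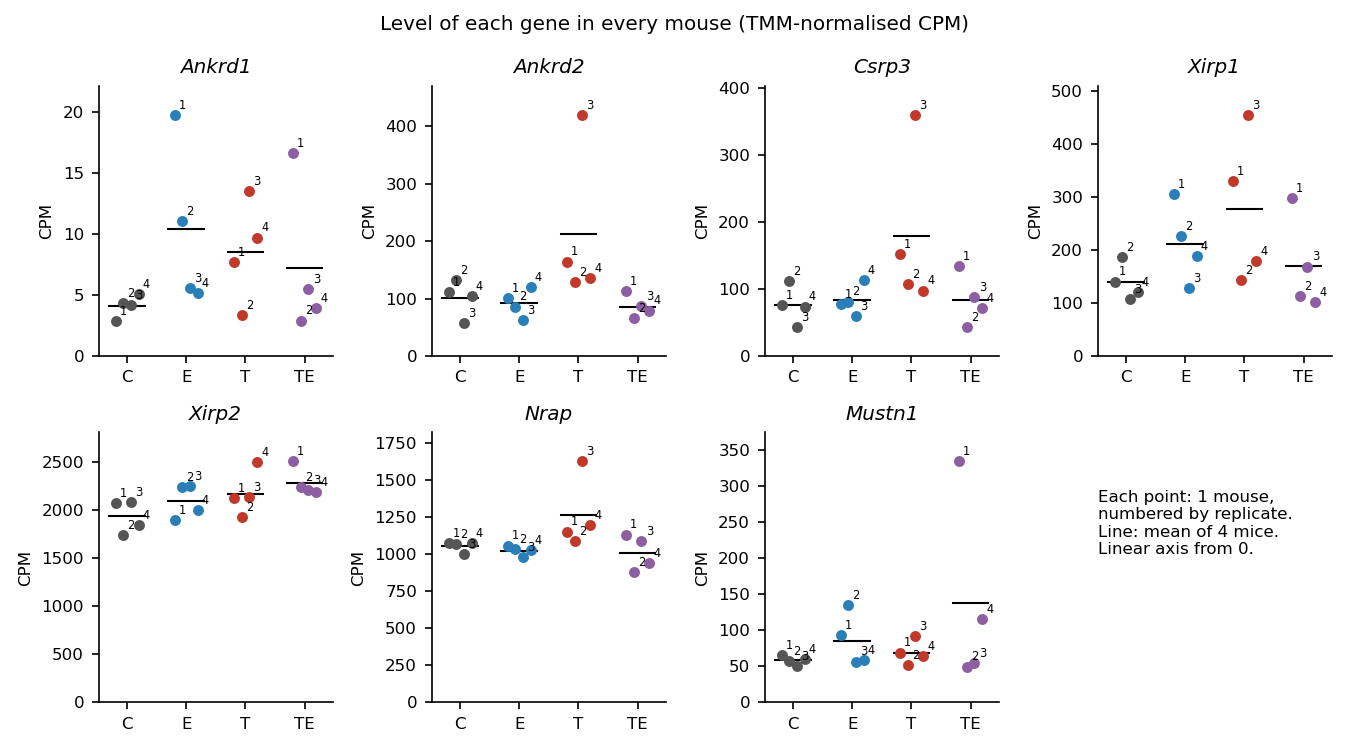
Level of each gene in CPM (linear axis from 0) in every mouse, by group, with points numbered by replicate and lines at the mean of 4 mice. T3 is the highest mouse for Ankrd2, Csrp3, Xirp1 and Nrap, and TE1 stands alone for Mustn1 at 335 CPM.

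Spread between mice of a group divided the genes. The pooled SD of log2 CPM within groups was 0.85 for Ankrd1, 0.73 for Mustn1, 0.65 for Csrp3, 0.61 for Xirp1 and 0.54 for Ankrd2, against a median of 0.19 over all genes tested. Only 4.65% of the tested genes had a larger SD than Ankrd1 and 15.5% a larger one than Ankrd2. Nrap and Xirp2 were steadier, at 0.16 and 0.13, with 59.8% and 72.7% of genes above them. The fewest counts of any of the 7 in a library were 97, for Ankrd1 in C1. From the lowest to the highest of the 16 mice, Csrp3 spanned 8.42-fold and Xirp2 1.44-fold.

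The comparison of the T and C groups asks what a tumor does to untrained muscle. Fitted levels in the T group were 2.00-fold to 2.35-fold those of the C group for Ankrd1, Ankrd2, Csrp3 and Xirp1, with the largest ratio for Csrp3, and 1.20-fold for Nrap. Xirp2 and Mustn1 had smaller differences, with mice of both groups in the same range. Ankrd2 was at 111, 132, 57.1 and 104 CPM in the C mice and at 164, 128, 420 and 136 CPM in the T mice. T3 was far above the rest and T2 lay below C2, so the groups overlapped. The log2 fold change of Ankrd2 was 1.07 ± 0.335 (SE, edgeR).

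Csrp3, the Z-disc LIM protein gene, was at 76.1, 112, 42.8 and 73.6 CPM in the C mice and at 152, 107, 360 and 97.6 CPM in the T mice. Its log2 fold change was 1.23 ± 0.396 (SE), again with overlapping groups and with the highest level in T3. Xirp1, the shorter of the Xin repeat genes, was at 140, 187, 107 and 120 CPM in the C mice and at 330, 143, 454 and 179 CPM in the T mice, a log2 fold change of 1.00 ± 0.368 (SE). T1 and T3 were above every C mouse for Xirp1 and the other 2 were within the range of the C mice. Ankrd1 was at 2.83, 4.31, 4.18 and 5.08 CPM in the C mice and at 7.67, 3.32, 13.5 and 9.70 CPM in the T mice, a log2 fold change of 1.06 ± 0.528 (SE). T2 was the lowest T mouse for Ankrd1 and lay within the C range.

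Nrap differed less and its groups did not overlap. The share of all genes whose groups do not overlap was not counted for any pair of groups. Nothing is therefore read from such gaps, here or below. Its C mice were at 1077, 1070, 1001 and 1074 CPM and its T mice at 1153, 1088, 1628 and 1196 CPM, a log2 fold change of 0.26 ± 0.105 (SE). The gap between the groups was narrow, between 1077 and 1088 CPM. Xirp2 had a log2 fold change of 0.16 ± 0.0864 (SE) and Mustn1 one of 0.24 ± 0.448 (SE), both with overlapping groups.

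Of the 7 genes, 0 were DEGs (genes that differed by more than 2-fold in either direction, with an adjusted p under 0.05) in T vs C by edgeR's quasi-likelihood test, where 0.285% of all tested genes were, and 0 were by DESeq2, where 0.712% were. At an unadjusted p under 0.05, edgeR counted 4 of the 7, Ankrd2, Csrp3, Nrap and Xirp1, all higher in the T group, beside 14.2% of all genes. The genes were chosen with this comparison known, so nothing is read from that count. The median log2 fold change of all tested genes was -0.0012. Neutrophil markers differed in the same comparison: of 10 tested, 9 were higher in the T group at an unadjusted p under 0.05 and 5 were DEGs (Ltf, Ngp, Retnlg, S100a8 and S100a9), with a median log2 fold change of 2.72. Without C3, 8 were higher and 2 were DEGs (Ngp and Retnlg). Of 11 lymphocyte markers, 5 were lower at an unadjusted p under 0.05, with a median of -3.10 and 0 DEGs. The highest lymphocyte sums of the C mice were those of C3 and C2. The sums of C1 (0.816 CPM) and C4 (2.31 CPM) lay in or near the range of the T mice. Without C3, 0 of 11 were lower at that threshold, with a median of -1.97, and without C2 4 were, with a median of -3.06. Of 9 regenerating and embryonic muscle markers, 2 were higher at an unadjusted p under 0.05, with a median of 0.24 and 0 DEGs. These were Myh3 (3.17) and Myl4 (1.01). Without T4 the count was 1 and the median -0.10. The parts of these lists in the differences of the 7 genes were not tested. Without T3 the log2 fold changes were 0.50 for Ankrd2, 0.64 for Csrp3, 0.65 for Xirp1, 0.74 for Ankrd1, 0.11 for Nrap and 0.072 for Mustn1, and 0 of the 7 had an unadjusted p under 0.05.

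**Figure D2:**
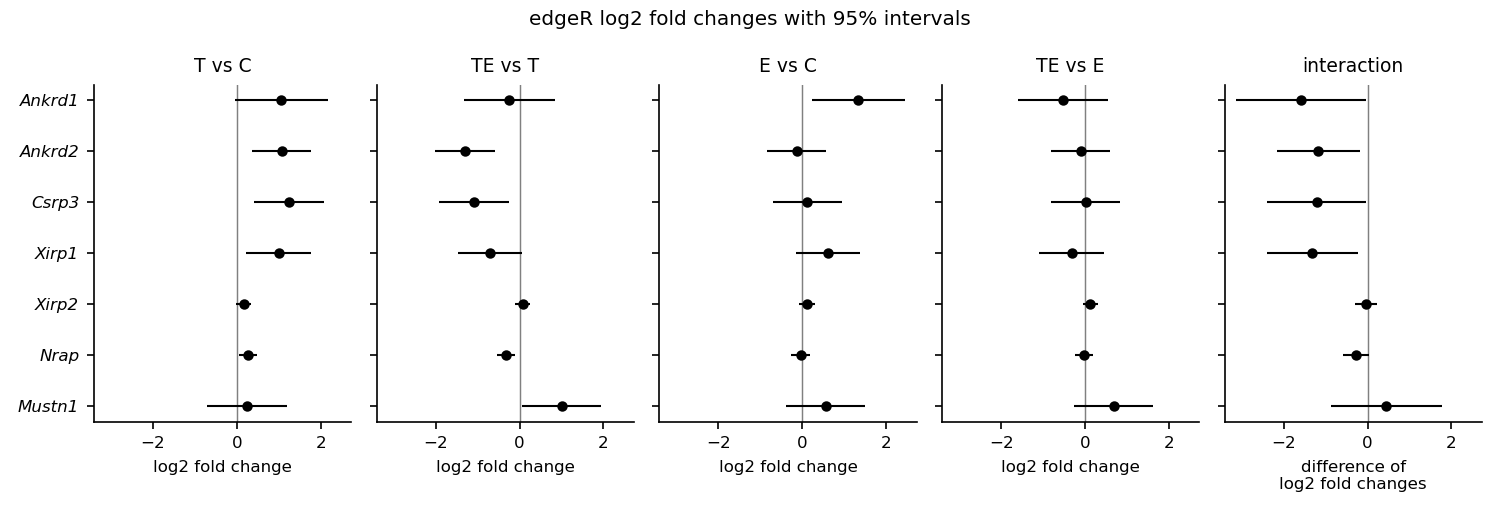
Log2 fold change of each gene with its 95% interval from the edgeR fit of all 16 libraries, by comparison, with the interaction (the difference of 2 log2 fold changes) on the right. Ankrd2, Csrp3 and Xirp1 lie above 0 in T vs C at 1.07, 1.23 and 1.00, while the intervals of Xirp2 and Nrap are the narrowest in each comparison.

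The comparison of the TE and T groups asks what training does in tumor-bearing mice, and it shares the T mice with the comparison above. Ankrd2 and Csrp3 had lower means in the TE group, by 1.30 and 1.09 on the log2 scale, and Mustn1 had a higher one. Ankrd2 was at 113, 65.3, 86.7 and 78.8 CPM in the TE mice, each below every T mouse, and its log2 fold change was -1.30 ± 0.337 (SE). Csrp3 was at 134, 42.7, 87.4 and 71.2 CPM in the TE mice, a log2 fold change of -1.09 ± 0.395 (SE). TE1 lay within the T range for Csrp3. Nrap was at 1133, 882, 1091 and 943 CPM, with a log2 fold change of -0.32 ± 0.105 (SE) and a narrow overlap with the T mice. Xirp1 was at 298, 112, 169 and 102 CPM in the TE mice, a log2 fold change of -0.70 ± 0.366 (SE), with overlapping groups. For Xirp1 this was -1.12 without TE1 and -0.35 without T3.

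Mustn1 ran the other way, and 1 mouse set its value. The TE mice were at 335, 49.8, 54.8 and 116 CPM and the T mice at 69.0, 51.5, 91.8 and 64.5 CPM, so that TE1 and TE4 lay above every T mouse, TE3 within their range and TE2 below it. Its log2 fold change was 1.00 ± 0.450 (SE), and 0.085 without TE1. Ankrd1 was at 16.6, 2.90, 5.46 and 3.91 CPM in the TE mice. Its log2 fold change of -0.24 ± 0.514 (SE) was -1.06 without TE1 and 0.070 without T3. Xirp2 had a log2 fold change of 0.074 ± 0.0864 (SE). Its mice ran from 1743 to 2085 CPM in the C group, from 1893 to 2250 in the E group, from 1924 to 2499 in the T group and from 2187 to 2506 in the TE group. Each TE mouse was thus above each C mouse for Xirp2, a pair of groups that was not tested.

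In TE vs T, 0 of the 7 genes were DEGs by edgeR, where the share of all tested genes was 0%, and 0 by DESeq2, where it was 0.0244%. At an unadjusted p under 0.05, edgeR counted 4 of the 7, Ankrd2, Csrp3 and Nrap lower and Mustn1 higher in the TE group, beside 5.88% of all genes, and nothing is read from this count either. Without T3 the log2 fold change was -0.73 for Ankrd2, -0.50 for Csrp3 and -0.18 for Nrap, and 3 of the 7 (Ankrd2, Nrap and Mustn1) were counted.

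Slow-fiber markers differed in the same comparison. Of 11 slow-twitch markers, 10 were lower in the TE group at an unadjusted p under 0.05 and 0 were DEGs, with a median log2 fold change of -0.78 against 0.0014 over all genes. The slow myosin light chain gene Myl2 had a log2 fold change of -0.91 and the slow troponin gene Tnni1 one of -1.13. The count was 2 of 11 without T4, with a median of -0.43, 8 of 11 without T3 and 6 of 11 without TE4. In T vs C, 2 of the 11 were higher at an unadjusted p under 0.05, with a median of 0.42, and -0.031 without T4. The T mouse with the most slow-marker RNA was T4 at 3477 CPM, followed by T3 at 2504 CPM, whereas Ankrd2 and Csrp3 were highest in T3. Within groups, the mean of the slow markers had a Pearson r of 0.16 with Ankrd2 and 0.034 with Csrp3 over 16 mice, and 0.42 and 0.32 without T4. Of 11 lymphocyte markers, 9 were higher at an unadjusted p under 0.05, with a median of 3.77 and 0 DEGs, but this was TE4 alone: without it 0 of 11 were, with a median of 0.25. Of 10 neutrophil markers, 2 were lower in the TE group at an unadjusted p under 0.05, Ltf (-3.28) and Ngp (-2.36), with a median of -0.50 and 0 DEGs. Of 9 regenerating and embryonic muscle markers, 2 were lower, Myh3 (-3.62) and Myl4 (-1.09), with a median of -0.30 and 0 DEGs, and without T4 the count was 1 and the median 0.11. The parts of these 3 lists in the differences of the 7 genes were not tested. The part of fiber type in the differences of Ankrd2 and Csrp3 was not tested beyond these values.

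**Figure D3:**
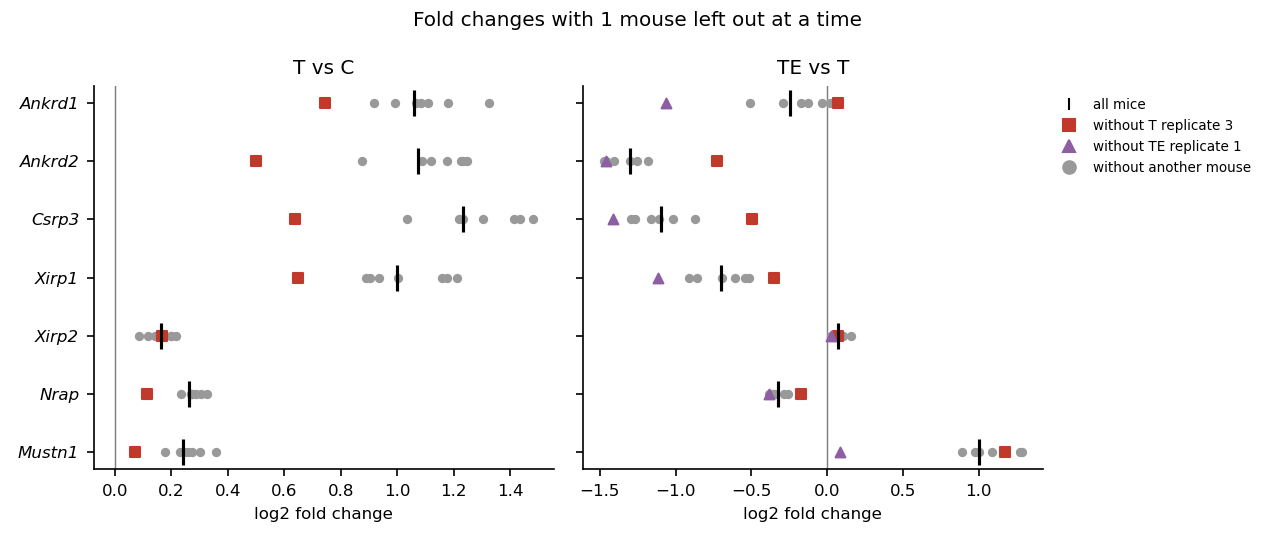
Log2 fold change of each gene in T vs C (left) and TE vs T (right) with all mice (bar) and with 1 mouse left out at a time (points). Leaving out T3 moved Ankrd2 from 1.07 to 0.50 in T vs C and from -1.30 to -0.73 in TE vs T, and leaving out TE1 moved Mustn1 from 1.00 to 0.085.

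The comparison of the E and C groups asks what training does without a tumor. The largest difference among the 7 was that of Ankrd1, though it failed the adjustment over all genes. Ankrd1 was at 19.8, 11.1, 5.54 and 5.16 CPM in the E mice, each above the highest C mouse at 5.08 CPM. The margin was small for E3 and E4 and large for E1. Its log2 fold change of 1.34 ± 0.528 (SE) had an adjusted p = 0.276 by edgeR. Without E1 the log2 fold change was 0.82, and without it, or without C1, the unadjusted p was not under 0.05.

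Xirp1 was at 305, 226, 128 and 188 CPM in the E mice, of which E3 lay within the C range and E4 just above its top of 187 CPM, with a log2 fold change of 0.61 ± 0.366 (SE, edgeR, adjusted p = 0.465), and 0.38 without E1. Mustn1 was at 65.5, 57.2, 50.8 and 60.4 CPM in the C mice and at 93.2, 135, 56.5 and 59.1 CPM in the E mice, with a log2 fold change of 0.55 ± 0.448 (SE, edgeR, adjusted p = 0.606), and 0.25 without E2. E1 and E2 were above the C range for Mustn1. Ankrd2 had a log2 fold change of -0.13 with a 95% interval from -0.83 to 0.57, and Csrp3 one of 0.12 with an interval from -0.70 to 0.95. Those intervals still hold changes of more than 1.5-fold. Nrap and Xirp2 were bounded more closely, from -0.26 to 0.18 and from -0.068 to 0.30. With 1 mouse left out, Ankrd2 ran from -0.33 (without C3) to 0.025 (without C2). Csrp3 ran from -0.075 (without C3) to 0.37 (without C2), so the sign of both turned on single mice.

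In E vs C, 0 of the 7 genes were DEGs by edgeR, where 0.0475% of all tested genes were, and 0 by DESeq2, where 0.33% were. At an unadjusted p under 0.05, edgeR counted 1 of the 7, Ankrd1, beside 14.2% of all genes. A fit of only these groups counted 3 (Ankrd1, Mustn1 and Xirp1), and 0 were counted without C1 or without E1. Tendon and myotendinous junction markers differed in this comparison. Of 10 markers, 7 were higher in the E group at an unadjusted p under 0.05. Fmod, a collagen-binding proteoglycan gene, and Tnmd, a tendon membrane protein gene, were DEGs, at 1.99 and 1.56 on the log2 scale (adjusted p = 0.0206 and 0.0274 by edgeR). Of the 10, 4 were DEGs without E1, but edgeR called 0 DEGs among all genes without C1, C3 or E4 and 1 without C2 or E2, so both calls are lost without C1, C3 or E4 and at least 1 without E2, and neither was a DEG without C2. The 10 markers summed to 177 to 282 CPM in the E mice and to 99.6 to 114 CPM in the C mice. Within groups the mean of the tendon markers had a Pearson r of 0.18 with Ankrd1. Their part in the level of Ankrd1 was not tested.

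The comparison of the TE and E groups, which asks what a tumor does in trained mice, shares the E mice with the one before and the TE mice with the one before that. None of the 7 genes passed a threshold in it, with 0 DEGs by edgeR beside 0.0746% of all tested genes, 0 by DESeq2 beside 0.386%, and 0 at an unadjusted p under 0.05 beside 9.23%. Adjusted p-values from edgeR ran from 0.677 for Mustn1 to 0.995 for Csrp3. The log2 fold change of Mustn1 was 0.69 ± 0.447 (SE), and -0.23 without TE1. Ankrd1 had one of -0.52 with a 95% interval from -1.60 to 0.56, and with 1 mouse left out it ran from -1.34 (without TE1, at an unadjusted p under 0.05) to -0.0044 (without E1). For Ankrd2 it was -0.099, with an interval from -0.80 to 0.60, and for Csrp3 0.016, from -0.81 to 0.84. Neutrophil markers were higher in the TE mice here too, 6 of 10 at an unadjusted p under 0.05 with a median of 1.99 and 0 DEGs. Of the 10 tendon markers, 5 were lower in the TE mice at an unadjusted p under 0.05, with a median of -1.14, and Fmod, Kera and Tnmd were DEGs at -1.62, -1.90 and -1.57 (edgeR adjusted p = 0.0371, 0.0407 and 0.0104). Without TE1, of these 3 only Tnmd was a DEG, and without E1 or TE4 Fmod and Tnmd were. Of 11 lymphocyte markers, 0 passed that threshold, with a median of 1.34, and without TE4 7 were lower, with a median of -3.23. The parts of these lists in the values of the 7 genes were not tested. With TE2 or TE3 left out, Mustn1 had an unadjusted p under 0.05, at log2 fold changes of 0.98 and 0.96.

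The interaction compares the training difference in tumor-bearing mice with that in tumor-free mice. It was negative for Ankrd1 at -1.58 ± 0.735 (SE), Xirp1 at -1.32 ± 0.518, Csrp3 at -1.22 ± 0.555 and Ankrd2 at -1.17 ± 0.471, on the log2 scale. Nrap stood at -0.28 ± 0.148, Xirp2 at -0.040 ± 0.122 and Mustn1 at 0.45 ± 0.632. By edgeR 0 of the 7 were DEGs, where the share of all tested genes was 0%, and 0 by DESeq2, where it was 0.0931%. The first 4 genes named had an unadjusted p under 0.05, beside 9.21% of all genes, and 0 of the 7 had one without T3. Nothing is read from these counts, since the interaction holds the comparisons known when the genes were chosen. With 1 mouse left out, Ankrd1 ran from -2.40 (without TE1) to -1.06 (without E1). Without T3, Csrp3 stood at -0.62, Ankrd2 at -0.59, Xirp1 at -0.96, Nrap at -0.13 and Ankrd1 at -1.26, and Mustn1 was -0.47 without TE1. Of the 10 tendon markers, 7 were lower in the interaction at an unadjusted p under 0.05, with a median of -1.48. Of the 11 slow-twitch markers, 2 were lower, with a median of -0.70, and 0 were without T3, T4, C2 or C3. Of the 10 neutrophil markers, 1 was lower, with a median of -0.94. Of the 11 lymphocyte markers, 8 were higher, with a median of 4.56, against 0 and a median of 0.50 without TE4 and 1 and a median of 3.44 without C3. The parts of these lists were not tested.

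Among Ankrd1, Ankrd2, Csrp3, Xirp1 and Nrap, 8 pairs of genes were correlated from mouse to mouse within groups, all except Ankrd1 with Ankrd2 and with Csrp3, and 1 pair of Mustn1, that with Ankrd1, also passed. Log2 CPM was centred on the group means, so that differences between groups do not enter, and Pearson correlations over the 16 mice were tested by exact permutation within groups (two-sided, 331776 permutations), with adjustment over the 21 pairs. Of the 21 pairs, 9 had an adjusted p under 0.05. The mice are the same ones in which the genes were chosen. Ankrd2 and Csrp3 formed the closest pair, with r = 0.95 and Spearman rho = 0.91 (exact permutation p = 2.11e-05 and 2.71e-05, adjusted 0.000443 and 0.00057). Without C3 and T3, which lay farthest out, r was 0.90.

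Nrap followed both genes, with r = 0.85 and rho = 0.79 for Ankrd2 (exact permutation, adjusted p = 0.00376 and 0.0105) and r = 0.85 and rho = 0.78 for Csrp3 (adjusted p = 0.00651 and 0.0215). These were 0.66 and 0.58 without the 2 farthest mice. Xirp1 correlated with Csrp3 (r = 0.80, rho = 0.74, exact permutation, adjusted p = 0.00651 and 0.0215), with Ankrd2 (r = 0.77, rho = 0.78, adjusted p = 0.00376 and 0.00351), with Nrap (r = 0.77, rho = 0.74, adjusted p = 0.00651 and 0.0215) and with Ankrd1 (r = 0.79, rho = 0.70, adjusted p = 0.00811 and 0.0362). Without the 2 farthest mice these 4 values of r were 0.72, 0.78, 0.60 and 0.58. Ankrd1 and Ankrd2, the ankyrin repeat genes, had r = 0.48 with each other and rho = 0.46 (exact permutation, adjusted p = 0.119 and 0.15). Ankrd1 and Csrp3 had r = 0.51 and rho = 0.41 (exact permutation, adjusted p = 0.12 and 0.24), and r = 0.23 without T2 and TE1.

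Ankrd1 also correlated with Nrap (r = 0.68, rho = 0.70, exact permutation, adjusted p = 0.0329 and 0.0215) and with Mustn1 (r = 0.74, rho = 0.72, adjusted p = 0.0329 and 0.0362). Without T2 and TE1, the farthest for Ankrd1, r was 0.50 with Nrap and 0.47 with Mustn1, so both relations rest in part on those mice. Mustn1 with Xirp1 (r = 0.62, rho = 0.61) and with Ankrd2 (r = 0.44, rho = 0.51) just missed the threshold, both with an adjusted p = 0.0533 by exact permutation (0.0784 and 0.0669 for rho). Xirp2 passed with no gene, and its 6 pairs had r between -0.24 with Ankrd2 and 0.32 with Mustn1. No pair of a gene with the slow-twitch, regenerating or tendon marker means passed either (0 of 21), and the smallest adjusted p was 0.44, for Xirp2 with the regenerating markers (exact permutation, r = 0.63 over all 16 mice, 0.15 without T4 and TE1). T4, the mouse with the most RNA of those markers, weighs on these values: without it, r with the regenerating markers was 0.80 for Xirp1, 0.74 for Ankrd1, 0.74 for Mustn1, 0.56 for Csrp3, 0.53 for Nrap and 0.47 for Ankrd2, against values from -0.18 to 0.34 with all mice, and 0.41 for Xirp2.

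**Figure D4:**
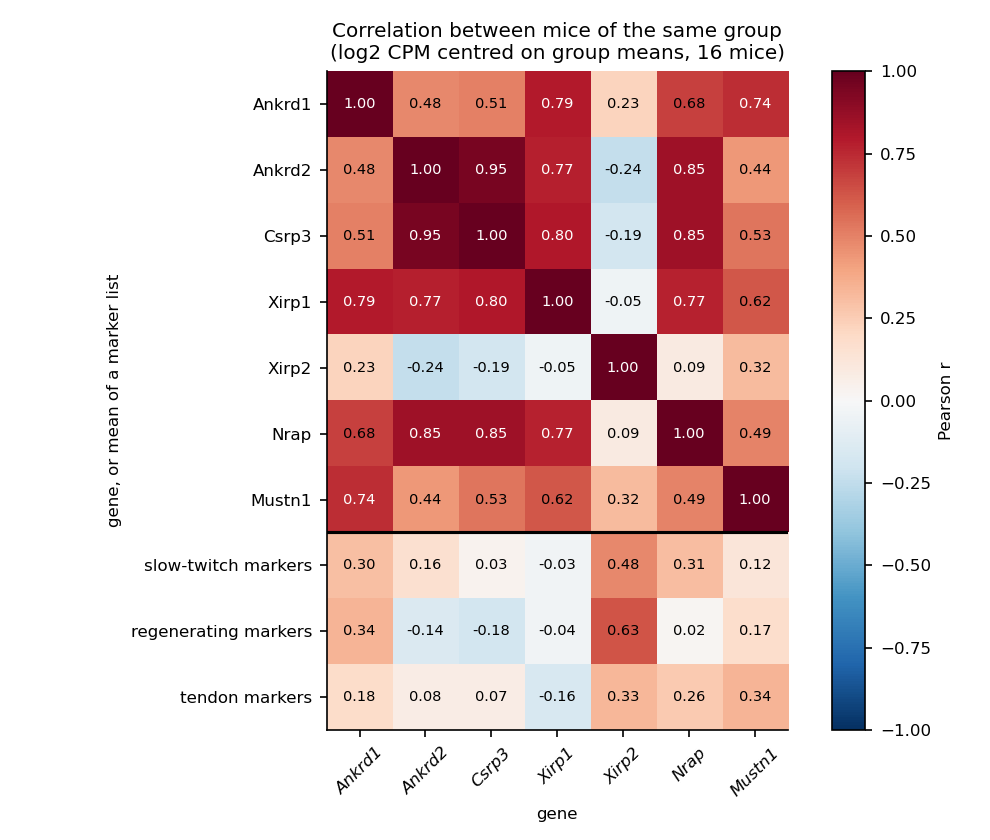
Pearson r between mice of the same group for every pair of the 7 genes (above the line) and for each gene with the mean of 3 marker lists (below it), over 16 mice, colored from -1 to 1. The block of Ankrd2, Csrp3, Xirp1 and Nrap holds values from 0.77 to 0.95, and Xirp2 has no value above 0.32 with another of the 7.

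The genes whose log2 CPM over the 16 libraries was most like that of the 7 were taken as the 3 with the highest Pearson r for each. Group means were not removed here, so differences between groups enter these values of r. Flnc, which encodes the muscle filamin of the Z-disc, was the nearest gene to Ankrd2 (r = 0.89), Csrp3 (r = 0.92) and Nrap (r = 0.90) and next after Enah and Tnfrsf12a for Xirp1 (r = 0.92). It was highest in T3, at 10.4 on the log2 CPM scale, against 8.84 in TE4, its lowest. The nearest to Xirp1 were Enah (r = 0.96), an actin filament elongation gene, and Tnfrsf12a (r = 0.94), which encodes the receptor of the cytokine TWEAK. Both were highest in T3 and lowest in C3.

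Chaperones came next to Csrp3, namely the DnaJ family gene Dnaja4 (r = 0.90) and the small heat shock gene Hspb7 (r = 0.89). Rnf10 (r = 0.89) and the LIM domain gene Pdlim1 (r = 0.88) followed Flnc for Ankrd2. Rnf10 (r = 0.89) and Cdh15 (r = 0.88), the muscle cadherin, did so for Nrap. Ankrd1 was most like Igf2bp2 (r = 0.83), an RNA-binding protein gene, Enah (r = 0.83) and Gm13889 (r = 0.82). Igf2bp2 had little RNA, at 0.0976 to 0.465 FPKM over the 16 libraries. Mustn1 was most like the tetraspanin gene Tspan14 (r = 0.93), Cpne2 (r = 0.84) and Uhrf2 (r = 0.81), all highest in TE1. Xirp2 was most like Usp31 (r = 0.84), Rb1 (r = 0.83) and Smg1 (r = 0.80).

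**Figure D5:**
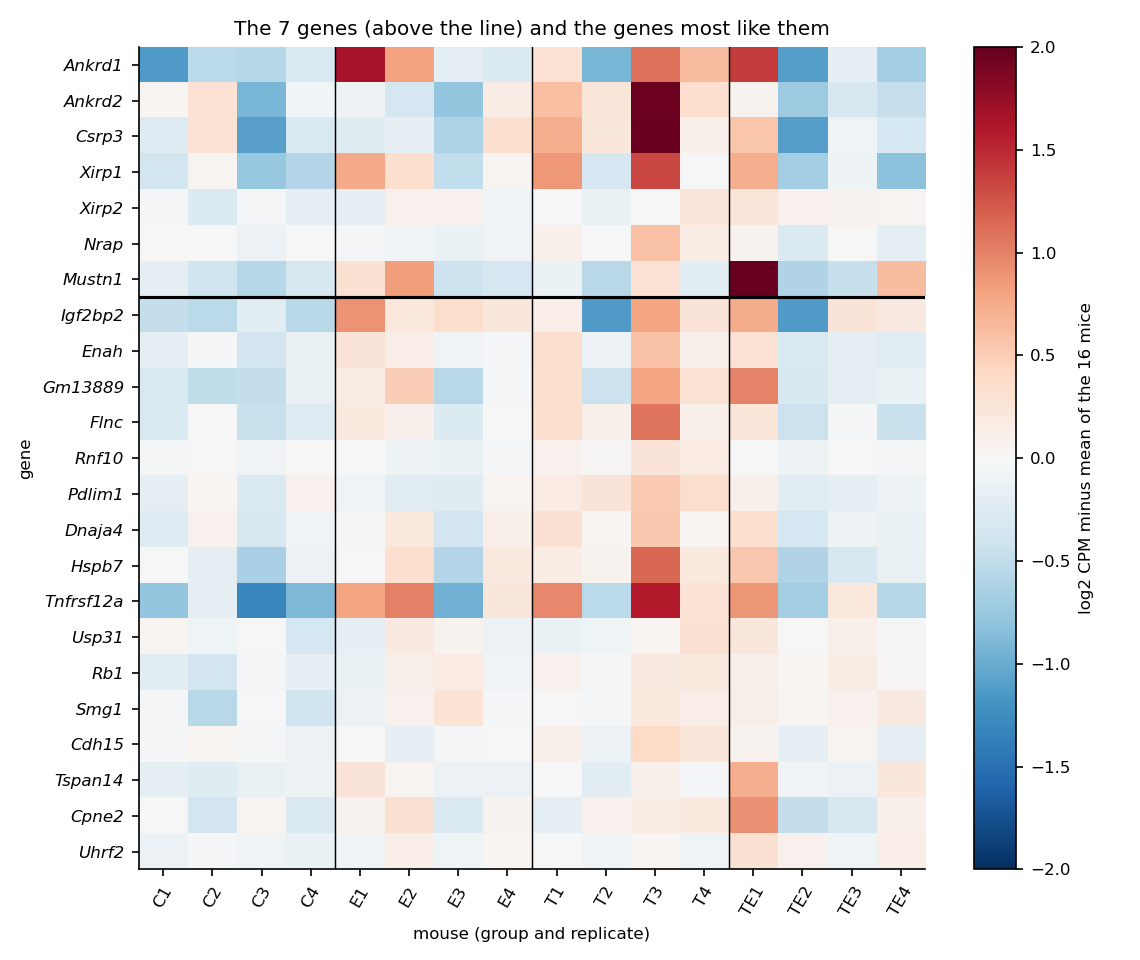
Log2 CPM minus the mean of the 16 mice for the 7 genes (above the line) and the genes most like them, by mouse and group, with red above and blue below the mean and colors cut at 2 on either side. T3 is red for Ankrd2, Csrp3, Xirp1 and Flnc, and TE1 is red for Mustn1 and Tspan14.

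Genes of the structures and pathways around the 7 were read from lists. Of 40 titin, Z-disc and intercalated-disc genes, which include Csrp3, Xirp1, Xirp2 and Nrap, 0 were DEGs in any comparison. In T vs C, 12 were higher and 1 lower at an unadjusted p under 0.05, with a median log2 fold change of 0.17 over the list. The share of all genes in either direction was 14.2%. The 12 include Csrp3, Xirp1 and Nrap, which were chosen with this comparison known. Without T3, 4 were higher and 2 lower. The 3 with the smallest p were Synpo2, a Z-disc adaptor, at 0.26, Flnc at 0.70 and Myoz2, the slow-fiber calsarcin, at 0.61, while Tcap, the titin cap, stood at -0.34. In TE vs T, 0 were higher and 9 lower (Csrp3 and Nrap among them), beside 5.88% of all genes, with a median of -0.10, and the lower genes were 5 without T3 and 14 without TE1. Myoz2 stood at -0.57 there, Synpo2 at -0.21 and Nrap at -0.32. The T mice are shared by these comparisons. Ankrd23, the remaining ankyrin repeat gene of this titin-binding family, stood at 0.31 in T vs C.

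Load pathways were counted in the trained mice, and then in T vs C. Of 19 tested SRF and MRTF target or pathway genes, 6 were higher and 1 lower in E vs C at an unadjusted p under 0.05, beside 14.2% of all genes, with a median of 0.28 and 0 DEGs. Cald1, Acta2 and Flna, genes of smooth muscle and non-muscle actin, had the smallest p-values, with differences of 0.56, 0.42 and 0.48 on the log2 scale (adjusted p = 0.0944, 0.146 and 0.148 by edgeR). In TE vs E, 0 were higher and 6 lower, beside 9.23% of all genes, with a median of -0.22. Of 17 YAP, TAZ and TEAD genes, 4 were higher and 0 lower in E vs C, beside the same 14.2%, with a median of 0.14, among them the coactivator gene Wwtr1 at 0.32, the receptor gene Axl at 0.54 and the factor gene Tead4 at 0.77 (adjusted p = 0.196, 0.197 and 0.277 by edgeR). In TE vs E, 1 was higher and 4 lower, beside 9.23%, with a median of -0.083, and 3 were lower without TE1 and 2 without E1. In T vs C, 3 of the SRF and MRTF genes were higher and 1 lower, beside 14.2% of all genes, with a median of 0.046. Of the YAP, TAZ and TEAD genes, 3 were higher and 1 lower there, with a median of 0.13. Without T3, 0 were higher and 2 lower in the first list, and 2 higher and 2 lower in the second. Neither list held a DEG in these comparisons.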

How the data were processed

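RNA of 16 gastrocnemius samples was sequenced, 4 per group, and the labels gave each sample's group and number. The submitters' processing notes name fastp 0.20.1, HISAT2 2.1.0, HTSeq 0.11.2 and DESeq2, with build GRCm39. The authors deposited raw counts per gene, without normalization, and FPKM values, which equal the counts divided by the library total and 1 length per gene. The annotation release and strand setting are not given in the sources used here. The paper and the labels name different versions of the library kit. No column (0) belonged to other samples.

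The 7 genes, the gene lists and the tests were chosen with earlier results of these data known. Counts were tested with edgeR 4.0.16 in R 4.3.3 (filterByExpr, TMM factors, glmQLFit and glmQLFTest, 1 coefficient per group, all 16 libraries), with two-sided p-values adjusted by Benjamini-Hochberg over 14749 genes. The test was checked on simulated data. Log2 CPM used a prior count of 2. Genes named beside the 7 are the 3 most correlated with each, and in the lists the DEGs, genes with the smallest p-values in a comparison and defining markers. Tcap was named after its value was seen, as the lower gene of its list.

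Alternatives were DESeq2 1.42.0, its size factors in edgeR, no filter on low counts, a replicate block, fits of only the 2 groups compared, FPKM scales and Spearman correlations, and each mouse left out in turn. For the marker lists, the mice left out were chosen after seeing the data. Same-numbered mice did not pair: the correlation of their deviations from the group means ran from -0.24 to 0.21 and was over 0.1 in 5 of 24 pairs. The p-values of the main edgeR fit rest on the spread between mice of the same group, pooled over all 4 groups. Plots used matplotlib 3.10.9 (Python 3.11.15).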

Additional observations from a re-analysis of the deposited data

Results flagged for a closer look

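Dixon's ratio was taken on log2 CPM for each of the 7 genes in each of the 4 groups (28 sets of 4 mice). The gap between the highest or lowest mouse and its nearest neighbour was divided by the range of the group. Of these sets, 2 passed Dixon's 95% critical value for 4 samples. Chance flags about 1 in 20 sets. Nrap in the C group had a ratio of 0.905, because C3 was at 1001 CPM and the other 3 between 1070 and 1077. Xirp2 in the TE group had a ratio of 0.838, because TE1 was at 2506 CPM and the other 3 between 2187 and 2236. On this log2 scale, the high T3 value of Ankrd2, Csrp3 and Nrap and the high TE1 value of Mustn1 did not reach the critical value.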

How the results depend on the processing

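Of the 7 genes, 0 were DEGs under every alternative tried. Of 504 alternative log2 fold changes, 20 took the other sign, none had an adjusted p under 0.05 and the smallest was 0.0737. By more than 1 SD, 6 moved: Ankrd2 without T3 in 3 comparisons (0.50 in T vs C, -0.73 in TE vs T, -0.59 in the interaction) and Mustn1 without TE1 in 3 (0.085 in TE vs T, -0.23 in TE vs E, -0.47 in the interaction). Over all genes, edgeR called 42 DEGs in T vs C, 0 in TE vs T, 7 in E vs C, 11 in TE vs E and 0 in the interaction. DESeq2 called 107, 4, 45, 58 and 14. Without a filter on low counts, edgeR called 64, 1, 16 and 27 in the first 4. Fits of only the groups compared called 18 in T vs C, 31 in E vs C and 21 in TE vs E. The replicate block called 27 in T vs C, stayed within 1.5 times elsewhere and made none of the 7 genes a DEG. With 1 mouse left out, the counts ran from 7 to 90, from 0 to 1, from 0 to 17, from 6 to 12 and from 0 to 1. The 9 correlated pairs became 10 with the replicate block and 6 to 13 with 1 mouse left out, and 0 pairs with marker lists stayed 0. The cause of these shifts was not tested. With 4 mice per group, and Ankrd1 at 97 to 752 counts per library, differences smaller than the intervals given could not be detected.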
